A study of Penicillium oxalicum with 6 samples.

Results

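The main cellulase and beta-glucosidase genes of Penicillium oxalicum, a mould known for the plant cell wall degrading enzymes it secretes, are a set of 8 genes chosen by gene ID out of the 9834 genes in the deposited tables. They are the cellobiohydrolase genes POX05587 (Cel7A-2) and POX04786 (Cel6A), the endoglucanase genes POX05571, POX07535, POX01166, POX06147 and POX05570, and the beta-glucosidase gene POX06835. These roles and names, and the word main, came with the list of genes. The deposited tables carry IDs alone, and the RefSeq gene table for assembly ASM172317v3, with 9964 entries under other locus tags, matched 0 of the 9834 IDs and 0 of the 8, so roles were not checked and neither position nor sequence is given.

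Mycelium labelled MuKu70 throughout was compared in 2 groups of 3 libraries. MuKu70 is named in the sample titles as a Ku70 mutant. Ku70 is a protein of DNA end joining, and its loss is commonly used to make targeted gene deletion easier in fungi. By their labels, 3 libraries came from medium with 1% Avicel, a microcrystalline cellulose, and 3 from medium with 1% wheat bran, a plant residue that also holds hemicellulose and starch, all after 4 hours. Hyphae were moved into liquid basic medium and shaken with the carbon source. The title of the series names a POX07277 deletion mutant moved from glucose to Avicel for 24 hours, which goes against these labels in strain and time and, for the second group, in medium. POX07277 had 427, 375 and 331 expected counts in Avicel-labelled replicates F, S and T and 0 in every library labelled wheat bran. The labels do not mention that gene. The names under which the values were deposited carry the number of POX07277 and 24 h in both groups. Their first letter differs between the groups, and the labels do not explain it. Whether the groups differ in medium, in strain or in both cannot be told apart from the labels. Whether the time was 4 or 24 hours is not settled either. The groups are therefore called Avicel-labelled and wheat-bran-labelled, and every direction is that of the Avicel-labelled libraries. The replicates are lettered F, S and T, and no label calls them separate cultures; the p-values rest on their spread, which may be technical.

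Cellulose is taken apart by enzymes that act together. Endoglucanases cut within the chain and open new ends, cellobiohydrolases move along the chain from its ends and release the disaccharide cellobiose, and beta-glucosidases split cellobiose into glucose. In filamentous fungi the genes for these secreted enzymes are known to be switched on by cellulose or its breakdown products and held down by glucose.

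The cellobiohydrolase and endoglucanase genes were all higher in the Avicel-labelled libraries, and the beta-glucosidase gene was lower. All 8 genes passed the filter on low counts. Of the 8, 7 rose and 1 fell in the Avicel-labelled libraries (quasi-likelihood test of edgeR at an adjusted p below 0.05), where 55.0% of the 8636 tested genes passed, 27.5% as higher and 27.5% as lower. At 2-fold or more, 7 of the 8 genes were higher, against 7.03% of tested genes, and 0 of the 8 were lower, against 9.41%. At 4-fold or more, 4 of the 8 were higher, against 1.84%. The 8 genes were chosen with earlier results of these data known. The shares of tested genes are therefore given as background, and the set as a whole was not tested. The median log2 fold change was 2.02 over the 8 genes and 0.00859 over all tested genes. For all 8 genes the FPKM values (fragments per kilobase and per 1000000 fragments, scaled by the authors) of the groups did not overlap, as was so for 63.8% of tested genes. For each of the 8 genes alone, p was 0.1 in an exact permutation test (two-sided), which with 3 libraries a group can go no lower. More RNA per cell and more cells that make these RNAs cannot be told apart in libraries from whole mycelium.

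**Figure D1:**
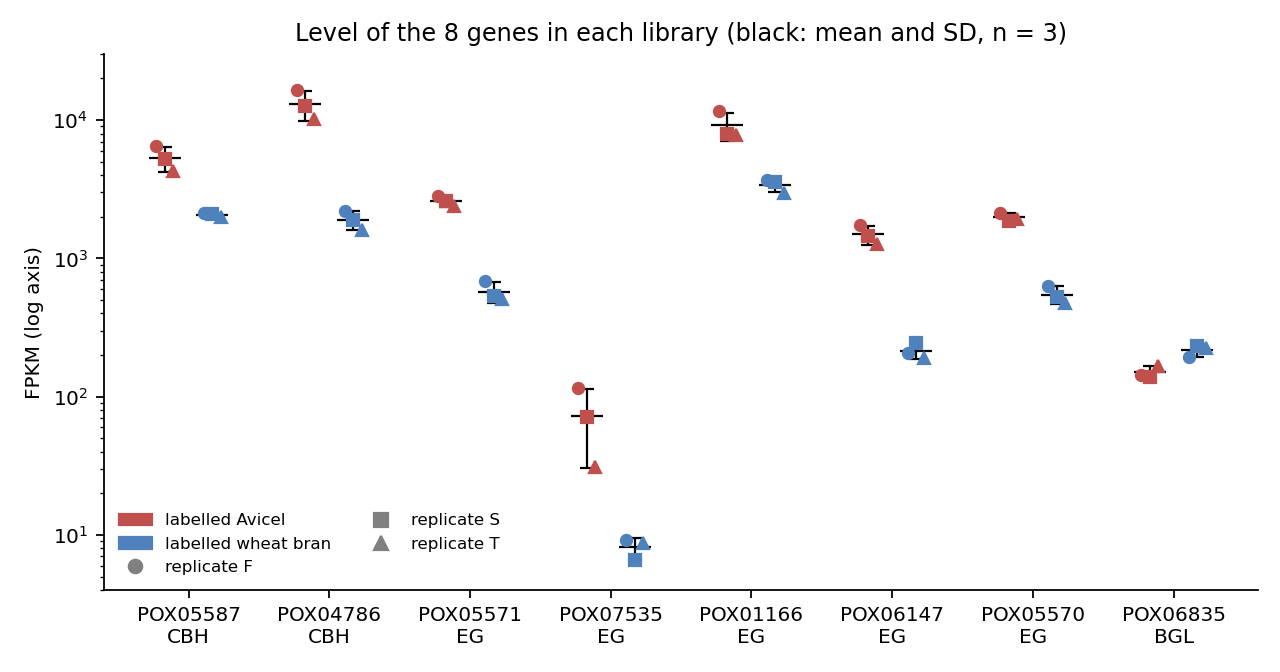
FPKM on a log axis of each of the 8 genes in each library, with red points for the libraries labelled Avicel and blue points for those labelled wheat bran, and black bars for the mean and SD (CBH, cellobiohydrolase; EG, endoglucanase; BGL, beta-glucosidase). The red points lie above the blue ones for 7 genes and below them for POX06835, and those of POX07535 are the most spread.

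The expected counts (estimated numbers of reads per gene) of a library summed to 14598919, 14455500 and 14310051 in Avicel-labelled replicates F, S and T, and 13176152, 13428671 and 13645708 in the wheat-bran-labelled libraries. Across the log2 levels of tested genes, Pearson's r between libraries was 0.983 to 0.995 within the groups and 0.882 to 0.909 between them, where genes are not independent replicates.

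The cellobiohydrolase gene POX04786 had 16496, 12593 and 10127 FPKM in Avicel-labelled replicates F, S and T, against 2210.4, 1891 and 1614 FPKM in wheat-bran-labelled replicates F, S and T. Every library labelled Avicel was well above every library labelled wheat bran, with replicate F the highest of all. Behind these values lay expected counts of 338971, 256161 and 203962 in Avicel-labelled replicates F, S and T, and 41184, 35888 and 31129 in the wheat-bran-labelled libraries. It averaged 13072 ± 3211 FPKM in the Avicel-labelled libraries and 1905 ± 299 FPKM in the wheat-bran-labelled libraries (SD, n = 3 each). POX04786 was 6.88-fold higher in the Avicel-labelled libraries, with a 95% interval of 4.69 to 10.1 (log2 fold change 2.78, SE 0.24, adjusted p = 5.78e-05 by edgeR). In order of FPKM among all genes it stood at ranks 2, 3 and 5 in Avicel-labelled replicates F, S and T, and at ranks 56, 65 and 97 in the wheat-bran-labelled libraries.

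The cellobiohydrolase gene POX05587 had 6460.4, 5194 and 4286 FPKM in Avicel-labelled replicates F, S and T, against 2119, 2112 and 1998 FPKM in wheat-bran-labelled replicates F, S and T. The groups lay apart, and the wheat-bran-labelled libraries were close to one another, with a coefficient of variation of 3.27%, against 20.6% in the Avicel-labelled libraries. Its mean level was 5314 ± 1092 FPKM in the Avicel-labelled libraries and 2076 ± 67.9 FPKM in the wheat-bran-labelled libraries (SD, n = 3 each). The gene was 2.56-fold higher in the Avicel-labelled libraries, with a 95% interval of 1.91 to 3.44 (log2 fold change 1.36, SE 0.18, adjusted p = 0.000568 by edgeR). It ranked 10, 11 and 16 by FPKM in Avicel-labelled replicates F, S and T, and 62, 53 and 67 in the wheat-bran-labelled libraries.

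The fitted increase was larger for POX04786 than for POX05587, and their 95% intervals did not overlap. The ratio of POX04786 to POX05587 in FPKM, which does not depend on how libraries are scaled, was 2.55, 2.42 and 2.36 in Avicel-labelled replicates F, S and T, against 1.04, 0.895 and 0.808 in wheat-bran-labelled replicates F, S and T. POX04786 was the more abundant in every library labelled Avicel, while in the wheat-bran-labelled libraries it was above POX05587 in replicate F and below it in S and T. On the log2 scale the ratio was 1.43 higher in the Avicel-labelled libraries, without overlap (exact two-sided permutation p = 0.1; over all 28 pairs of the 8 genes the smallest Benjamini-Hochberg adjusted p was 0.127).

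Among the endoglucanase genes, POX01166 was the most abundant in both groups. It had 11591, 7992 and 7865 FPKM in Avicel-labelled replicates F, S and T, against 3684, 3553 and 2952 FPKM in wheat-bran-labelled replicates F, S and T, averaging 9149 ± 2116 FPKM in the Avicel-labelled libraries and 3396 ± 390.3 FPKM in the wheat-bran-labelled libraries (SD, n = 3 each). The groups did not overlap, and replicate F stood above S and T within the Avicel-labelled libraries. It rose 2.70-fold, with a 95% interval of 1.95 to 3.74 (log2 fold change 1.43, SE 0.20, adjusted p = 0.000728 by edgeR). Its rank by FPKM among all genes was 5, 7 and 8 in Avicel-labelled replicates F, S and T and 33, 34 and 42 in the wheat-bran-labelled libraries.

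POX05571, an endoglucanase gene, had 2839, 2589.8 and 2379 FPKM in Avicel-labelled replicates F, S and T, against 686, 534 and 505 FPKM in wheat-bran-labelled replicates F, S and T. The lowest library labelled Avicel was 3.47 times the highest labelled wheat bran. The gene rose 4.53-fold, with a 95% interval of 3.51 to 5.86 (log2 fold change 2.18, SE 0.16, adjusted p = 2.71e-05 by edgeR). The endoglucanase gene with the next lower ID number, POX05570, had 2140.2, 1873 and 1920.4 FPKM in Avicel-labelled replicates F, S and T, against 634, 529 and 478 FPKM in wheat-bran-labelled replicates F, S and T. Its groups also lay apart, and its libraries labelled Avicel differed little from one another, with a coefficient of variation of 7.22%. POX05570 rose 3.62-fold, with a 95% interval of 2.92 to 4.49 (log2 fold change 1.86, SE 0.13, adjusted p = 2.54e-05 by edgeR).

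POX05571 and POX05570 had nearly the same level per length in the wheat-bran-labelled libraries and parted in those labelled Avicel. The ratio of POX05571 to POX05570 was 1.33, 1.38 and 1.24 in Avicel-labelled replicates F, S and T, against 1.08, 1.01 and 1.06 in wheat-bran-labelled replicates F, S and T. It was higher in every library labelled Avicel, by 0.33 on the log2 scale, the smallest difference among the pairs whose ratios did not overlap between groups (exact two-sided permutation p = 0.1).

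POX06147, an endoglucanase gene, had 1743, 1464 and 1274 FPKM in Avicel-labelled replicates F, S and T, against 208, 243 and 190.1 FPKM in wheat-bran-labelled replicates F, S and T. Its lowest library labelled Avicel was 5.24 times its highest labelled wheat bran, the widest gap between the groups among the 8 genes. It rose 6.997-fold, with a 95% interval of 5.37 to 9.11 (log2 fold change 2.81, SE 0.16, adjusted p = 9.45e-06 by edgeR).

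POX07535, the endoglucanase gene with the lowest level in the set, had 115, 71.8 and 31.1 FPKM in Avicel-labelled replicates F, S and T, against 9.15, 6.55 and 8.73 FPKM in wheat-bran-labelled replicates F, S and T. The groups did not overlap, but replicate F labelled Avicel was 3.69 times replicate T of that group. It was read with 1175, 728 and 312 expected counts in Avicel-labelled replicates F, S and T and 85, 62 and 84 in the wheat-bran-labelled libraries. By FPKM it ranked 1292, 2028 and 4076 in Avicel-labelled replicates F, S and T, and 7037, 7396 and 6987 in those labelled wheat bran. It rose 8.92-fold, the largest fitted change in the set and the least certain, with a 95% interval of 4.24 to 18.8 (log2 fold change 3.16, SE 0.46, adjusted p = 0.000844 by edgeR). The log2 fold change was 2.66 without replicate F labelled Avicel, 3.53 without replicate T labelled Avicel, and 2.40 with limma on log2(FPKM + 5), where the added 5 by construction shrinks the change of a gene at this level. Its coefficient of variation of 57.7% in the Avicel-labelled libraries was above that of 99.4% of the 3443 tested genes within 2-fold of its mean count there, whose median was 8.44%.

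The beta-glucosidase gene POX06835 had 144, 138 and 168 FPKM in Avicel-labelled replicates F, S and T, against 192, 233 and 225 FPKM in wheat-bran-labelled replicates F, S and T. All 3 libraries labelled Avicel were below all 3 labelled wheat bran, with the lowest labelled wheat bran at 1.15 times the highest labelled Avicel. It averaged 150.0 ± 15.5 FPKM in the Avicel-labelled libraries and 217 ± 21.6 FPKM in the wheat-bran-labelled libraries (SD, n = 3 each). POX06835 was 1.45-fold lower in the Avicel-labelled libraries (log2 fold change -0.53, SE 0.12, adjusted p = 0.00614 by edgeR), and the 95% interval of the log2 fold change was -0.81 to -0.26. Among tested genes, 18.7% had a lower log2 fold change than POX06835, so its decrease was a common size of change in these libraries. At 2-fold or more it was not called.

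**Figure D2:**
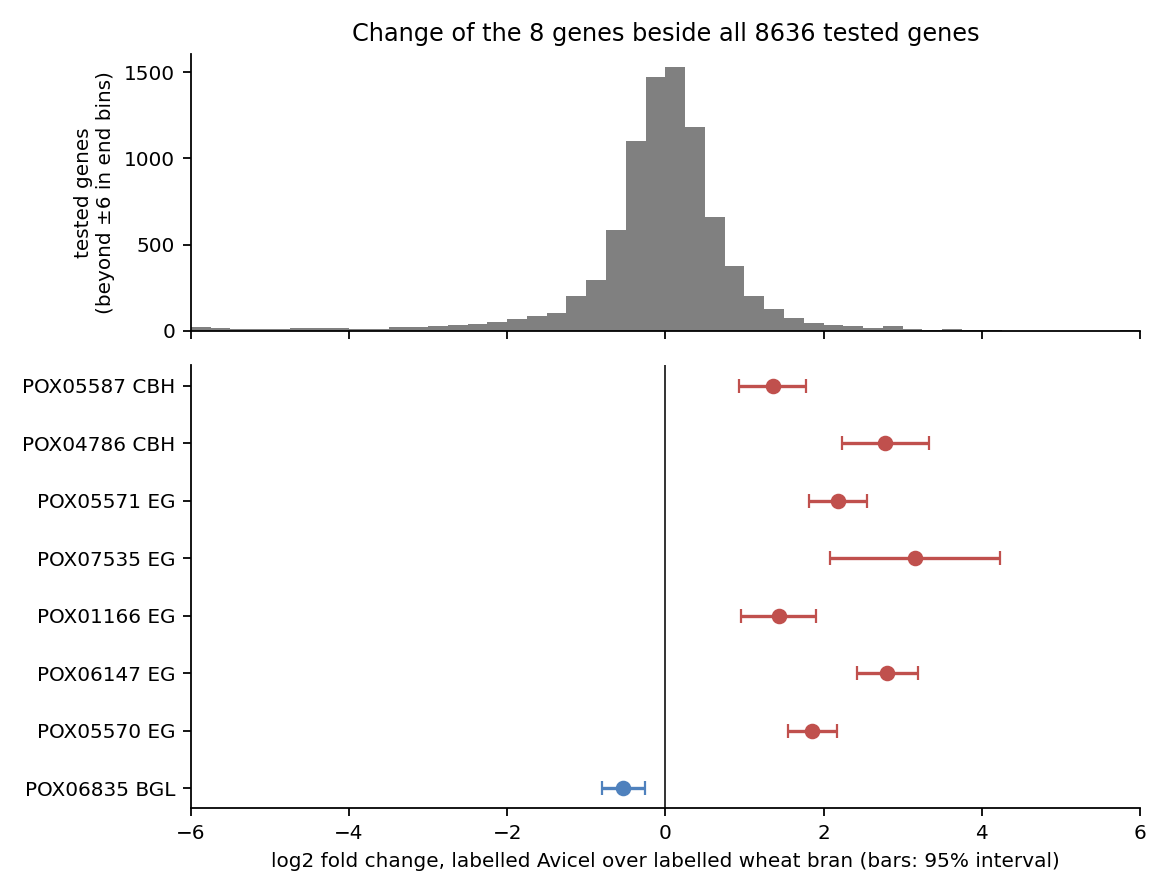
Upper panel, the number of tested genes by log2 fold change, Avicel-labelled over wheat-bran-labelled, with values beyond ±6 in the end bins; lower panel, the fitted log2 fold change of the 8 genes with 95% intervals. The intervals of 7 genes lie above 0 and that of POX06835 below it, from -0.81 to -0.26.

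Set against all tested genes, POX07535, POX06147 and POX04786 had the largest increases of the set. In the libraries labelled Avicel, 39 called genes, POX07535 included, were higher by at least as much as POX07535, 65 by at least as much as POX06147 and 71 by at least as much as POX04786. For POX05571 that number was 130, for POX05570 183, for POX01166 313 and for POX05587 350. The 95% intervals of the folds of POX05587 and POX01166 lay below those of POX04786, POX06147 and POX07535.

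The order of the genes by level per length also differed between the groups. In the libraries labelled Avicel it ran, from high to low mean FPKM, POX04786, POX01166, POX05587, POX05571, POX05570, POX06147, POX06835 and POX07535. The ranges over libraries of the first pair, POX04786 and POX01166, overlapped, although POX04786 was the higher in each of the 3 libraries, and no other neighbours in that order overlapped. In the libraries labelled wheat bran the order was POX01166, POX05587, POX04786, POX05571, POX05570, POX06835, POX06147 and POX07535. There the ranges of POX05587 and POX04786 overlapped, as did those of POX05571 and POX05570 and those of POX06835 and POX06147. Of the 8 genes, 5 were among the 100 genes with the highest FPKM in every library labelled Avicel and 3 in every library labelled wheat bran.

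Together the 8 genes took a larger part of the transcript pool in the Avicel-labelled libraries. Their share of all FPKM was 4.35%, 3.36% and 2.94% in Avicel-labelled replicates F, S and T, against 0.905%, 0.859% and 0.747% in the wheat-bran-labelled libraries. The means were 3.55% ± 0.720 in the Avicel-labelled libraries and 0.837% ± 0.0813 in the wheat-bran-labelled libraries (SD, n = 3 each). Replicate F labelled Avicel was the highest library of its group for 7 of the 8 genes, the exception being POX06835, while it was the highest of that group for 42.1% of tested genes. Without that library the share labelled Avicel was 3.15%.

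The make-up of the set shifted, by the most percentage points towards the cellobiohydrolase gene POX04786. POX04786 made up 38.4% ± 2.02 of the summed FPKM of the 8 genes in the Avicel-labelled libraries and 21.2% ± 1.28 in the wheat-bran-labelled libraries (SD, n = 3 each). POX05587 made up 15.7% ± 0.513 in the Avicel-labelled libraries and 23.3% ± 1.66 in the wheat-bran-labelled libraries, and POX01166 made up 27.0% ± 1.70 in the Avicel-labelled libraries and 38.0% ± 1.01 in the wheat-bran-labelled libraries (SD, n = 3 each). POX05587 and POX01166 took smaller shares in the Avicel-labelled libraries although both rose. POX06147 took a larger share, 4.44% ± 0.214 in the Avicel-labelled libraries and 2.40% ± 0.270 in the wheat-bran-labelled libraries (SD, n = 3 each). In the same order, mean shares were 7.81% and 6.41% for POX05571, whose libraries overlapped between the groups, and 0.204% and 0.0918% for POX07535. For POX05570 they were 5.96% and 6.11%.

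**Figure D3:**
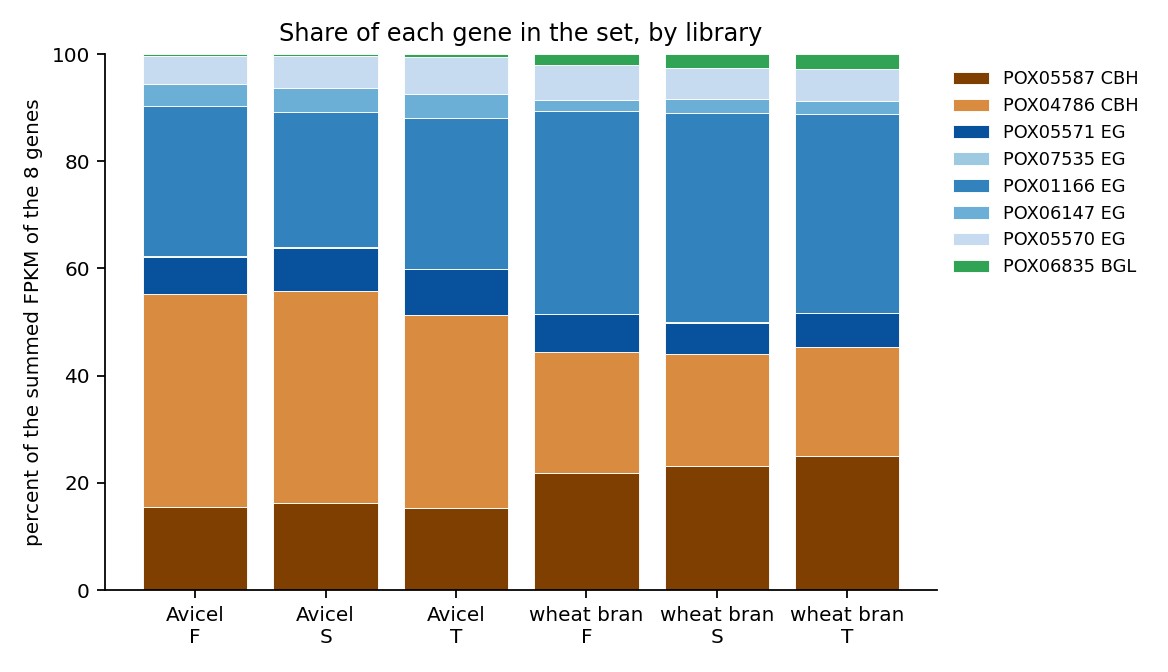
Percent of the summed FPKM of the 8 genes taken by each gene, 1 bar per library, with the libraries labelled Avicel on the left and those labelled wheat bran on the right. POX04786 fills 36.1% to 39.7% of the bars labelled Avicel and 20.2% to 22.7% of those labelled wheat bran; POX07535 is too small to see.

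By role, cellobiohydrolase genes made up 54.1% ± 2.39 of the summed FPKM of the set in the Avicel-labelled libraries and 44.6% ± 0.677 in the wheat-bran-labelled libraries, and endoglucanase genes 45.4% ± 2.28 in the Avicel-labelled libraries and 53.0% ± 0.962 in the wheat-bran-labelled libraries (SD, n = 3 each). The summed FPKM of the endoglucanase genes over that of the cellobiohydrolase genes was 0.803, 0.787 and 0.934 in Avicel-labelled replicates F, S and T, against 1.21, 1.22 and 1.14 in wheat-bran-labelled replicates F, S and T. Endoglucanase transcripts were therefore the smaller part in every library labelled Avicel and the larger part in every library labelled wheat bran. The beta-glucosidase gene made up 0.459% ± 0.127 of the set in the Avicel-labelled libraries and 2.45% ± 0.435 in the wheat-bran-labelled libraries (SD, n = 3 each). The summed FPKM of the 7 cellulase genes over that of POX06835 was 287, 229.8 and 166 in Avicel-labelled replicates F, S and T, against 49.7, 38.1 and 34.4 in wheat-bran-labelled replicates F, S and T. These sums follow the most abundant members and are given as descriptions, with no test.

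Ratios within a library were computed for all 28 pairs of the 8 genes. They did not overlap between the groups for 22 pairs and overlapped for 6, while they did not overlap for 65.0% of all pairs of tested genes above 0 FPKM in every library. Pairs share genes and libraries and are not independent, and nothing particular to the set is read from this count. The 7 pairs with POX06835 were among the 22. Of the pairs that overlapped, 3 were pairs of POX07535 with POX05571, POX06147 or POX05570 and 1 was its pair with POX04786. The spread of POX07535 among the libraries labelled Avicel was wide. The mean difference in log2 ratio was small for POX04786 to POX07535, at -0.22, and for POX07535 to POX06147, at 0.18. It was larger for POX05571 to POX07535, at -0.79, and for POX07535 to POX05570, at 1.12. The other pairs that overlapped were POX05587 with POX01166, and POX04786 with POX06147. The log2 ratio of POX05587 to POX01166 was -0.84, -0.62 and -0.88 in Avicel-labelled replicates F, S and T and -0.80, -0.75 and -0.56 in the wheat-bran-labelled libraries, with a mean difference of -0.08 (exact two-sided permutation p = 0.5). The log2 ratio of POX04786 to POX06147 was 3.24, 3.10 and 2.99 in Avicel-labelled replicates F, S and T and 3.41, 2.96 and 3.09 in the wheat-bran-labelled libraries, with a mean difference of -0.04 (exact two-sided permutation p = 0.9). Each of these pairs holds a cellobiohydrolase gene and an endoglucanase gene, and its ratio differed between the groups by less than the spread among libraries. A p above the threshold in 3 against 3 does not show that the ratios were equal.

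**Figure D4:**
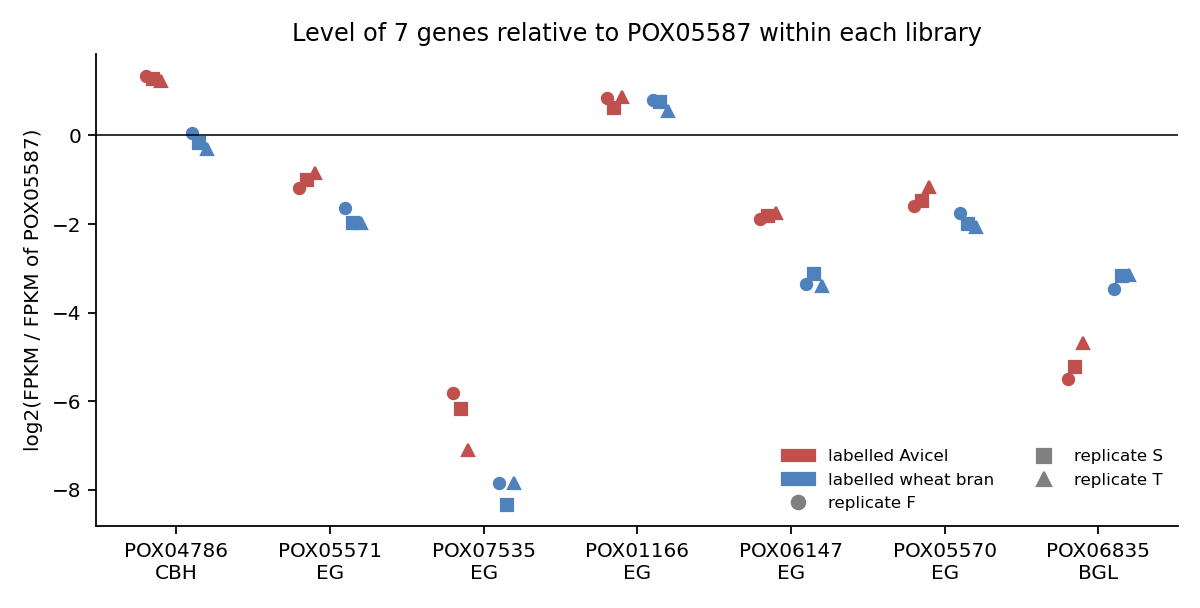
Log2 ratio of the FPKM of 7 genes to that of POX05587 in the same library, red for libraries labelled Avicel and blue for those labelled wheat bran. The red and blue points overlap for POX01166 alone, lie higher in red for the other 5 cellulase genes and lower in red for POX06835.

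The genes most like POX05587 over the 6 libraries were sought by the distance between log2 profiles, each taken from its own mean. Of the 8635 other tested genes, the closest were POX03025, at a distance of 0.122, and POX08307, at 0.169; the files give no name for either. POX03025 had 307, 237 and 216 FPKM in Avicel-labelled replicates F, S and T, against 100.1, 104 and 92.4 FPKM in wheat-bran-labelled replicates F, S and T, a log2 fold change of 1.36. POX08307 had 2286, 1762 and 1575 FPKM in Avicel-labelled replicates F, S and T, against 800.2, 783 and 786 FPKM in wheat-bran-labelled replicates F, S and T, a log2 fold change of 1.25. Both were chosen by these same library values, which are given as a description with no test. Within the set, POX01166 came at rank 5 of the 8635, POX05570 at 355, POX05571 at 1157, POX04786 at 4477, POX06147 at 4687, POX07535 at 5781 and POX06835 at 7087. The profiles of 6 libraries in 2 groups reflect the size of the difference between the groups for the most part.

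Genes with ID numbers within 5 of a member were called about as often as all genes. There were 70 such genes outside the set, of which 63 were tested and 32 (50.8%) were called, 16 higher and 16 lower in the Avicel-labelled libraries, against 55.0% of all tested genes. Of the tested neighbours, 6 (9.52%) rose and 10 (15.9%) fell by 2-fold or more, against 7.03% and 9.41% of all tested genes, and the median log2 fold change was -0.05. Nearness here is nearness of ID numbers, not of genome positions, which were not used.

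Around POX04786, 9 of 10 numbered neighbours did not pass the threshold and 1, the gene 2 numbers below it, was lower (log2 fold change -1.17, adjusted p = 0.007 by edgeR). Around the pair POX05570 and POX05571, the gene 1 number above POX05571 rose as well, at 86.5 ± 24.8 FPKM in the Avicel-labelled libraries and 27.8 ± 2.76 FPKM in the wheat-bran-labelled libraries (SD, n = 3 each; log2 fold change 1.64, SE 0.21, adjusted p = 0.000401 by edgeR), while the gene 1 number below POX05570 was lower, at 6.06 ± 0.718 FPKM in the Avicel-labelled libraries and 13.6 ± 2.01 FPKM in the wheat-bran-labelled libraries (SD, n = 3 each; log2 fold change -1.17, SE 0.15, adjusted p = 0.000437 by edgeR). The gene 1 number above POX07535 also rose, at 149.6 ± 18.6 FPKM in the Avicel-labelled libraries and 9.99 ± 0.689 FPKM in the wheat-bran-labelled libraries (SD, n = 3 each; log2 fold change 3.90, SE 0.13, adjusted p = 7.59e-07 by edgeR), and so did the gene 1 number below it, at 1708 ± 133 FPKM in the Avicel-labelled libraries and 799 ± 48.5 FPKM in the wheat-bran-labelled libraries (SD, n = 3 each; log2 fold change 1.10, SE 0.13, adjusted p = 0.000285 by edgeR). Others around POX07535 fell. The gene 3 numbers below it was lower, at 253 ± 150.1 FPKM in the Avicel-labelled libraries and 1248 ± 126 FPKM in the wheat-bran-labelled libraries (SD, n = 3 each; log2 fold change -2.31, SE 0.44, adjusted p = 0.00302 by edgeR), as was the gene 3 numbers above it, at 59.8 ± 12.5 FPKM in the Avicel-labelled libraries and 195 ± 16.3 FPKM in the wheat-bran-labelled libraries (SD, n = 3 each; log2 fold change -1.70, SE 0.16, adjusted p = 9.97e-05 by edgeR). The genes 1, 2 and 3 numbers below POX06147 rose, by log2 fold changes of 1.11, 0.59 and 3.18, with edgeR adjusted p-values of 0.000484, 0.0155 and 2.44e-05. The gene 4 numbers above POX06147 was far lower, at 4.70 ± 0.569 FPKM in the Avicel-labelled libraries and 199 ± 45.6 FPKM in the wheat-bran-labelled libraries (SD, n = 3 each; log2 fold change -5.40, SE 0.22, adjusted p = 1.8e-06 by edgeR). The gene 1 number below POX05587 rose, at 96.0 ± 13.0 FPKM in the Avicel-labelled libraries and 45.4 ± 2.66 FPKM in the wheat-bran-labelled libraries (SD, n = 3 each; log2 fold change 1.08, SE 0.11, adjusted p = 0.000176 by edgeR), while the gene 4 numbers below it was lower (log2 fold change -1.57, adjusted p = 0.00589 by edgeR). Around POX01166, none of the 9 tested neighbours rose and 3 were lower, the genes 2, 4 and 5 numbers above it, with log2 fold changes of -1.61, -1.09 and -1.06 and edgeR adjusted p-values of 0.000295, 0.00284 and 0.00557. The gene 2 numbers below POX06835 was lower too (log2 fold change -1.82, adjusted p = 0.00435 by edgeR). Some of these folds belong to weak genes, whose mean FPKM follows, Avicel-labelled first and wheat-bran-labelled second. The gene 4 numbers below POX05587 had 0.30 and 0.90, and the gene 2 numbers below POX06835 had 0.78 and 2.84. The gene 2 numbers below POX04786 had 1.03 and 2.33, and the gene 3 numbers below POX06147 had 5.02 and 0.55. All 6 neighbours that rose and all 10 that fell by 2-fold or more are among those given here. These neighbours were singled out after their values were seen.

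**Figure D5:**
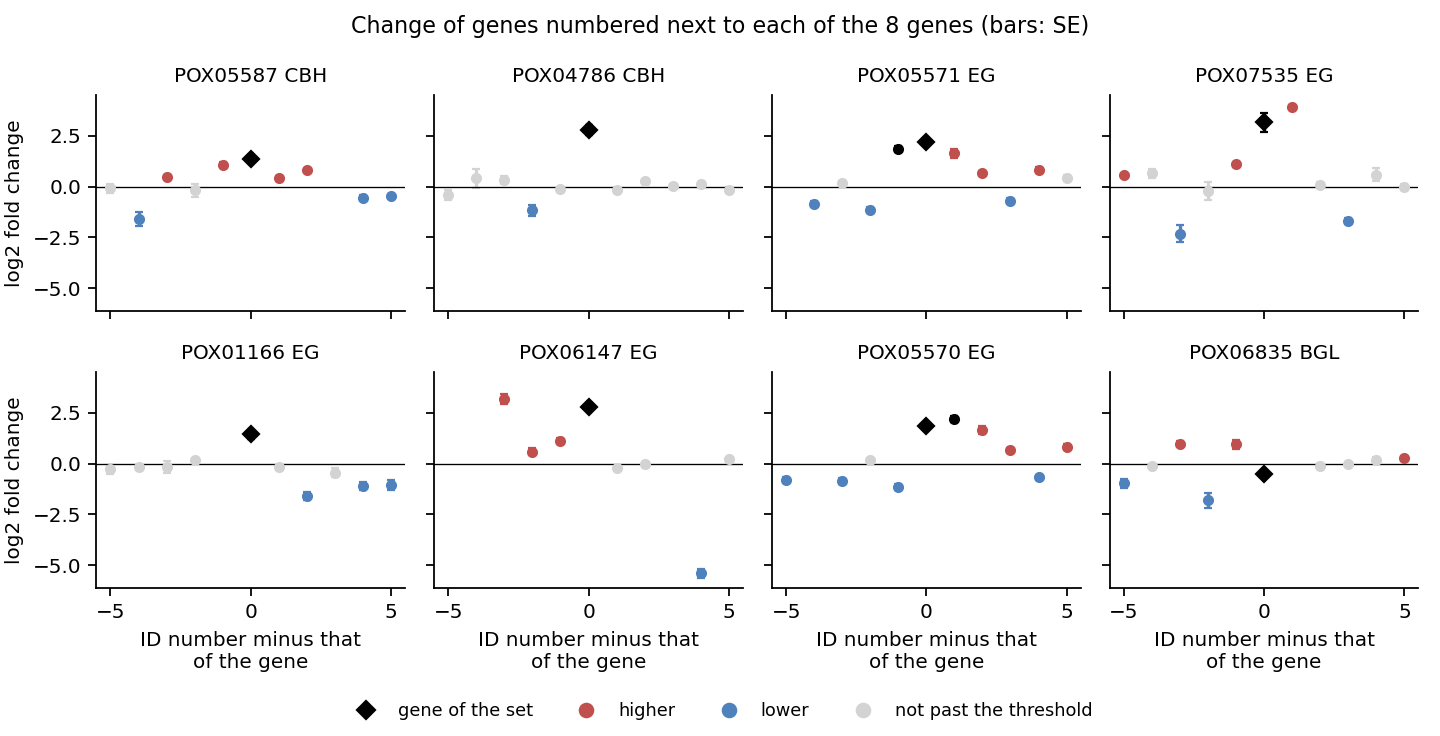
Fitted log2 fold change, with SE, of the tested genes numbered within 5 of each of the 8 genes, 1 panel per gene, against the ID number relative to it. The black diamond is the gene of the panel and a black circle another gene of the set; red, blue and grey mark neighbours that were higher, lower or not past the threshold, which stand side by side in most panels.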

How the data were processed

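Each of 6 mycelium libraries has 1 deposited table with not normalized expected counts (reads estimated per gene) and FPKM values, per the file headers. The deposited table of replicate T labelled wheat bran also holds TPM, which was not used. The authors scaled FPKM to gene length and library total. Per the submitters' processing notes, DESeq2, RSEM 1.2.12, Bowtie2 2.1.0 and BWA 0.7.10-r789 were used, in unstated roles; build, annotation and strand: not given in the sources used here, so reads of overlapping genes may be mixed. Expected counts, deposited with at most 2 decimals, were exactly whole in 99.2% of values, and in all values of the 8 genes; a read placed entirely on a similar gene leaves no trace in this measure.

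Expected counts were rounded, and edgeR 4.0.16 (R 4.3.3) was run with its filterByExpr filter, TMM scaling and two-sided quasi-likelihood test (Benjamini-Hochberg adjustment over all 8636 tested genes, threshold 0.05). Fold changes are Avicel-labelled over wheat-bran-labelled. The SE was derived from the F statistic, and 95% intervals from it. FPKM summed to 948844 to 955184 per Avicel-labelled library and 1059920 to 1076858 per wheat-bran-labelled library. Ratios of FPKM, which is scaled to library totals, differ slightly from the fitted folds, which are scaled by TMM. At the lowest count of a member, 62, counting error alone gives a coefficient of variation of 12.7%. Ratios within a library were compared with exact permutation tests (scipy 1.17.1), where p = 0.1 is the smallest possible. Named were the 8 genes, POX07277 and the 2 genes outside the set closest to POX05587 by Euclidean distance of centred log2(CPM + 1) profiles (CPM, counts per 1000000, TMM-scaled), and neighbours by ID number within 5. The genes, lists and tests were chosen with earlier results of these data known. Alternatives were DESeq2 1.42.0, other scalings and filters, limma 3.58.1 on log2 FPKM (genes with a mean FPKM of at least 1) with pseudocounts of 0.1, 1 and 5, removal of each library's trend with gene length, the letter as a replicate block, and each library left out.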

Additional observations from a re-analysis of the deposited data

How the results depend on the processing

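All 8 genes kept their direction and their call in all 16 alternatives each, so 7 were higher and 1 lower throughout; the highest edgeR, DESeq2 or limma adjusted p was 0.0285, for POX06835. Its log2 fold change ranged from -0.64 to -0.48 and that of POX07535 from 2.40 to 3.53. The count of called genes stayed within 1.5 times 4746 in all 16 alternatives, at 3911 to 4997 with each library left out and 4602 with the letter as a replicate block. At 2-fold or more, 892 genes were called with limma on log2(FPKM + 5), against 1420, since the pseudocount shrinks changes of weak genes; 1375 to 1477 were called with each library left out and 1420 with the replicate block. As a share of TMM-scaled counts, which weight long genes more, the 8 genes took 4.62% in the Avicel-labelled libraries and 1.25% in the wheat-bran-labelled libraries, and with each library of a group left out their share of FPKM was 3.15% to 3.86% and 0.803% to 0.882%. Deviations from the group means correlated at 0.19 between the F libraries, -0.10 between the S and 0.23 between the T libraries. By these deviations 4 of 6 libraries were closest to their own letter. Such values do not settle whether the letters pair the libraries, and pairing was not tested. The main fit left the libraries unpaired, and the replicate block is given beside it. With the replicate block the log2 fold change ranged from -0.53 for POX06835 to 3.01 for POX07535. The lowest count of a member in a library was 62, for POX07535, whose level labelled wheat bran is the least precise in the set.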
